A study of Mus musculus with 25 samples.

Results

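The 8 genes described here are Lin28b, Igf2bp1, Igf2bp3, Hmga2, Trim71, Gpc3, Mdk and Peg10, a group named after Lin28b and the oncofetal program, of 18194 genes on the arrays. Probe sets (groups of short probes that report one transcript) counted as theirs if the platform's annotation gave exactly 1 of these symbols, which held for 20 probe sets. A gene was represented by its set with the highest mean log2 intensity over the stages, and the other sets are described beside it. The data are 25 Affymetrix arrays of liver RNA from C57/B6 mice at 14 stages, without any transgene or treatment. The 6 postnatal pools are Day0 (the day of birth), Day3, Day7, Day14, Day21 and adult liver at 18 weeks. The 8 fetal pools run daily from embryonic day 11.5 (E11.5) to E18.5, counted from noon of the plug day as E0.5. Every stage is a single pool, which held 12 livers at the youngest age, 9 on the next pair of days, 6 at E14.5 and E15.5, and 3 from E16.5 onward. Each pool was measured on 2 repeat arrays, or on 1 at E18.5, Day7 and Day14.

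Oncofetal genes are those active in fetal tissue, low in the healthy adult organ and found again in tumours. Lin28b, an RNA-binding protein, blocks the maturation of the let-7 microRNAs, and let-7 in turn binds the messages of Lin28b itself, Hmga2, Igf2bp1, Igf2bp3 and Trim71. In fetal liver, which is also the organ of blood formation before birth, Lin28b and Hmga2 are known from studies of fetal blood stem cells, while Gpc3 and Mdk are known as markers of fetal liver and of hepatocellular carcinoma.

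The mature let-7 RNAs are shown because their seed, bases 2 to 8 in capitals, is what links 5 of these genes. The 10 family members in RefSeq (GRCm38.p6) with the seed GAGGUAG differ only outside it in the 4 given here, and their own levels were not analysed here.
let-7a-5p: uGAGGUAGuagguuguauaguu
let-7d-5p: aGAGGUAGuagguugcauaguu
let-7g-5p: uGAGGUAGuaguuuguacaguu
miR-98-5p: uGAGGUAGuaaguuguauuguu

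Promoters of 3 genes with unlike courses follow, each 300 bases (250 before to 50 after the start that the promoter table uses, RefSeq GRCm38.p6, minus strand in each case). Capitals mark 2 motifs searched on both strands: the E-box CACGTG, which reads alike on both, and the GC-box GGGCGG. On the opposite strand the GC-box reads CCGCCC. Their letters do not overlap here. Hmga2, which fell before birth, lies at chr10:120476420-120476719, Igf2bp3 at chr6:49214905-49215204, and Gpc3, which stayed high until after birth, at chrX:52613925-52614224. The gene table places the outer start of Igf2bp3 further upstream, at position 49215469, so its window lies inside the annotated gene.
Hmga2: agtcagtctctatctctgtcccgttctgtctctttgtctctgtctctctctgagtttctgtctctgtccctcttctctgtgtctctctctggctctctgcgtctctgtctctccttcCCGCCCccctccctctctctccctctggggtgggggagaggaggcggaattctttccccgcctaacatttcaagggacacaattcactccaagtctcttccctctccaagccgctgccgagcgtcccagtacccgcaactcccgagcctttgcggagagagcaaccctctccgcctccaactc
Igf2bp3: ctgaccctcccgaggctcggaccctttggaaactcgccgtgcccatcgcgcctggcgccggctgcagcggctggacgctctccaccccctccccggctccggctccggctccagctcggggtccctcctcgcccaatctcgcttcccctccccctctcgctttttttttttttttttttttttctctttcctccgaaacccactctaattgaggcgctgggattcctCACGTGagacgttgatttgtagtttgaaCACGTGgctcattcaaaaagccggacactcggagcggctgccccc
Gpc3: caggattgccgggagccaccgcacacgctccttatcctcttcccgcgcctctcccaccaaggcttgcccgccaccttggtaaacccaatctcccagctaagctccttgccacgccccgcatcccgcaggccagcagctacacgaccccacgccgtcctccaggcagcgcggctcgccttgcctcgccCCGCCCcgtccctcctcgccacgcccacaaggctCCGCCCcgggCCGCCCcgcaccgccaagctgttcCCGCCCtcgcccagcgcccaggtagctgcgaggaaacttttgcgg
The Gpc3 promoter holds 4 GC-boxes and that of Hmga2 holds 1, and the motif occurs in 35.7% of 32851 mouse promoters of this length. The Igf2bp3 promoter holds 2 E-boxes, a motif found in 7.15% of the promoters. TATAAA, present in 13.6% of them, is not in the 5 member promoters that the table holds, those of Lin28b, Igf2bp3, Hmga2, Trim71 and Gpc3.

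Array medians lay between 5.41 and 5.53 on the log2 scale. Over the probe sets that represent the genes, repeat arrays of a stage correlated with r between 0.986 and 0.996. The files hold no detection calls, so a floor was set on each array at the 95th percentile of 44 probe sets of olfactory receptor genes, which liver is not known to use. It lay between 5.78 and 6.72 log2 units, with a median of 6.28. Hepatoblast and hepatocyte markers such as Alb and Apoa1 were present as the tissue label implies, with a mean over 14 measured markers of 8.65 log2 units at E11.5, 11.22 at E18.5 and 11.82 in adults. The number of arrays limits the precision of every value below, and repeat arrays of a pool measure technical error only. In such whole-organ RNA fewer cells of a type and less RNA per cell cannot be told apart.

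The single probe set of Lin28b, the gene that gives the group its name, lay below the floor on all 25 arrays. Its stage means stayed between 3.82 and 3.92 log2 units after birth and between 3.86 and 4.10 before it. Peg10, a paternally expressed gene derived from a retrotransposon, was also below the floor on all 25 arrays, at 4.30 to 4.71 postnatally and 4.30 to 5.08 in the fetus. For these 2 genes no level above background was measured, and a probe set below the floor does not show that the RNA was absent. The descriptions that follow therefore rest on the other 6 genes.

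**Figure D1:**
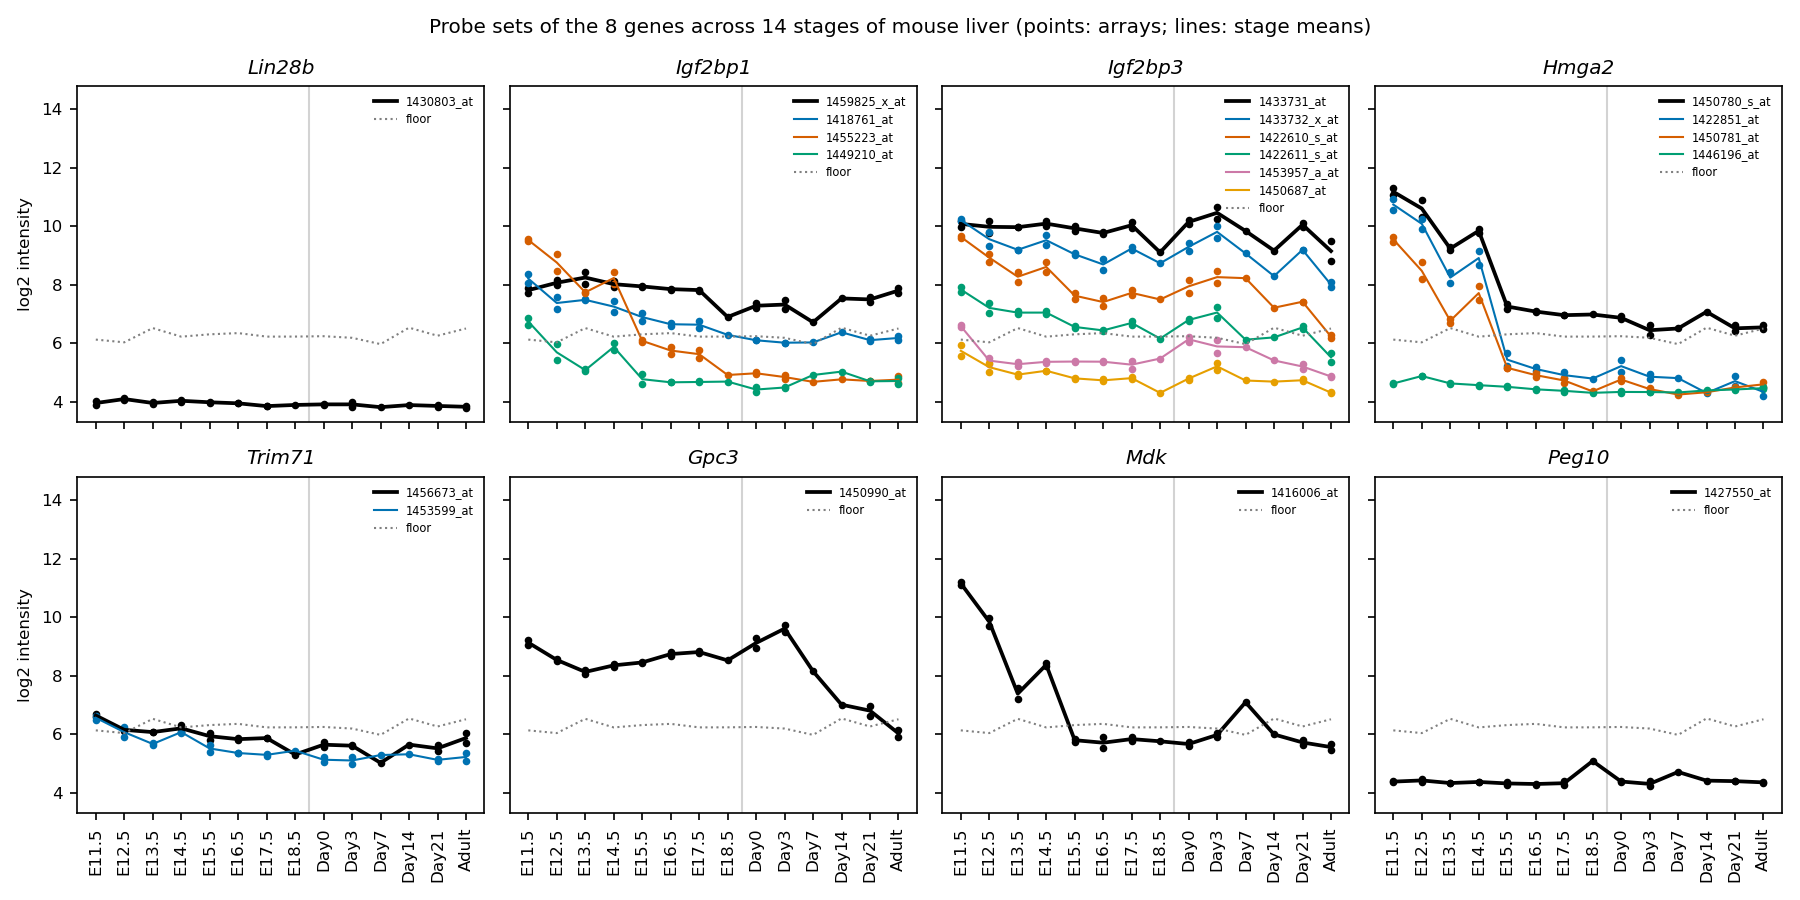
Log2 intensity of the 20 probe sets of the 8 genes (vertical axis) at the 14 stages in developmental order (horizontal axis). Points are arrays, lines join stage means, black marks the set that represents the gene, the dotted line is the floor and the grey vertical line is birth. Hmga2, Mdk and Igf2bp1 set 1455223_at drop to low values by E15.5, Gpc3 stays high until Day3, and Lin28b and Peg10 lie under the floor throughout.

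Hmga2, an architectural chromatin protein that bends AT-rich DNA, had its highest values in the youngest livers on 3 of its 4 probe sets. The set that represents it stood at 11.18 log2 units at E11.5, 10.61 at E12.5, 9.24 at E13.5, 9.85 at E14.5, 7.26 at E15.5, 7.09 at E16.5, 6.97 at E17.5 and 6.99 at E18.5. After birth it stood at 6.88 at Day0, 6.45 at Day3, 6.51 at Day7, 7.08 at Day14, 6.52 at Day21 and 6.55 in adults. The first 4 stages are thus far above all later ones, E14.5 is above E13.5, and Day14 is the one postnatal pool that reaches the lowest fetal values. Repeat arrays differed most at E12.5, where their SD was 0.40.

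The fitted change of Hmga2 over the fetal course, the slope per day times the span from E11.5 to E18.5, was -4.72 ± 0.66 log2 units (SE, 8 pools), a fall of 26.3-fold (limma, adjusted p = 0.00214 over all genes). Without the single E18.5 array the slope times the same span gave 42.8-fold, which extends the fit past the last pool it holds. The stage means themselves span 26.6-fold over the 14 stages. Set 1422851_at fell by 6.69 ± 0.85 (adjusted p = 0.00272 over all probe sets) and set 1450781_at by 5.27 ± 0.67 (limma, adjusted p = 0.00273). Both sets were below the floor on all 17 arrays from E15.5 onward, so E11.5 was at least 22.8-fold brighter than E18.5 on the first of them. The fourth set, 1446196_at, was below the floor on all 25 arrays.

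Most of that fall lay in 2 steps between neighbouring days. The E15.5 livers were 6.01-fold lower than the E14.5 livers (-2.59 ± 0.16 log2 units, SE from repeat arrays, limma, adjusted p = 6.2e-08). The E13.5 livers were 2.58-fold lower than the E12.5 livers (-1.37 ± 0.16, limma, adjusted p = 0.000127). E14.5 minus E13.5 was +0.61 ± 0.16 and did not pass (limma, adjusted p = 0.325), and E12.5 minus E11.5, at -0.57 ± 0.16, stayed under the threshold of 1 log2 unit. From E15.5 to adult age no step of Hmga2 was called, a call needing both an adjusted p under 0.05 and 1 log2 unit or more in size.

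Igf2bp1 and Igf2bp3 are RNA-binding proteins of 1 family that bind Igf2 and other messages and affect their stability and translation. For Igf2bp1 the 4 probe sets disagree. The set that represents the gene by the highest-mean rule, 1459825_x_at, was above the floor on all 25 arrays and moved little, between 6.72 and 7.81 log2 units after birth and 6.90 and 8.25 before it. Set 1455223_at instead stood at 9.53 log2 units at E11.5, 8.77 at E12.5, 7.75 at E13.5, 8.24 at E14.5, 6.09 at E15.5, 5.76 at E16.5, 5.63 at E17.5 and 4.92 at E18.5, and between 4.69 and 4.98 in the 6 postnatal pools. It was above the floor on all 8 arrays up to E14.5 and on 0 of the 17 later ones. Its course has the shape of that of Hmga2, with Pearson r = 0.98 and Spearman rho = 0.90 over the 14 stage means, against r = 0.58 for the set that represents Igf2bp1.

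Set 1455223_at of Igf2bp1 fell by 4.67 ± 0.46 log2 units over the fetal course (SE, 8 pools; limma, adjusted p = 0.00181 over all probe sets), and E11.5 was at least 9.84-fold brighter than E18.5. Sets 1418761_at and 1449210_at fell by 1.67 ± 0.19 (limma, adjusted p = 0.0022) and 1.82 ± 0.43 (adjusted p = 0.0227). The second of these passed the floor on only 3 of 25 arrays, and E11.5 was at least 1.43-fold brighter than E18.5, so a fall of 1 log2 unit was not measured on it. The representing set changed by -0.75 ± 0.32 and was not called (limma, adjusted p = 0.114 over all genes). A set ending in _x_at holds probes that can match other transcripts, and whether this one reports Igf2bp1 alone was not tested. At E15.5 set 1455223_at was lower than at E14.5 by -2.15 ± 0.17 log2 units (limma, adjusted p = 1.4e-06), in the same step as Hmga2.

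The Igf2bp3 set with the highest mean, 1433731_at, was bright at every stage. It lay between 9.16 and 10.47 log2 units in the postnatal pools, with a median of 9.95, and between 9.11 and 10.10 in the fetal pools, with a median of 9.98. The groups overlap almost completely, and the lowest fetal value is the single array of E18.5. Of the other 5 sets, 4 fell over the fetal course by 1.07 to 2.05 log2 units, the largest being 1422610_s_at with -2.05 ± 0.36 (limma, adjusted p = 0.0075 over all probe sets). The smallest of the 4, 1450687_at, was below the floor on all 25 arrays.

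Signal of Igf2bp3 was still above the floor after birth. Set 1422610_s_at stood at 9.64 log2 units at E11.5, 7.42 at E16.5, 8.27 at Day3, 7.43 at Day21 and 6.24 in adults, and its adult arrays were below the floor. In the step from Day21 to adult age 3 of the 20 member sets were called lower, all of Igf2bp3, beside 0.956% of all probe sets. On 1433732_x_at, above the floor on all arrays, the change was -1.19 ± 0.17 log2 units. On the other 2 the adult arrays were below the floor, so Day21 was at least 1.89-fold brighter on 1422610_s_at and at least 1.03-fold on 1422611_s_at, both under the size threshold. The representing set changed by -0.90 ± 0.19 in that step and was not called. Its 2 adult arrays, at 9.50 and 8.82, differed by more than those of any other stage.

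Trim71, a let-7 target and ubiquitin ligase of stem and progenitor cells, was weak. Its sets passed the floor on 4 of 25 arrays each, all of them among the 8 arrays up to E14.5. The representing set stood at 6.64 log2 units at E11.5, 6.15 at E12.5, 6.07 at E13.5, 6.20 at E14.5, 5.93 at E15.5, 5.83 at E16.5, 5.87 at E17.5 and 5.31 at E18.5, and between 5.02 and 5.87 after birth. Its fetal change of -0.98 ± 0.18 (limma, adjusted p = 0.00603) lies just under the size threshold, and that of the other set, 1453599_at, at -1.10 ± 0.23, just over it (adjusted p = 0.0152 over all probe sets). With E18.5 below the floor, E11.5 was at least 1.32-fold brighter on the representing set and at least 1.25-fold on the other. E11.5 was the highest stage on both sets.

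Mdk encodes midkine, a secreted heparin-binding growth factor. It stood at 11.16 log2 units at E11.5, 9.85 at E12.5, 7.39 at E13.5, 8.37 at E14.5, 5.80 at E15.5, 5.71 at E16.5, 5.83 at E17.5 and 5.76 at E18.5. After birth it stood at 5.66 at Day0, 5.98 at Day3, 7.09 at Day7, 5.99 at Day14, 5.72 at Day21 and 5.56 in adults. All 8 arrays up to E14.5 were above the floor, and of the 17 later ones only that of Day7 was.

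Over the fetal course Mdk fell by 5.45 ± 0.94 log2 units, or 43.8-fold by the fit (limma, adjusted p = 0.00469). Without E11.5 the slope times the same span gave a fall of 22.8-fold and without E18.5 one of 87.8-fold, both still called. Each extends the fit to the stage left out, while the stage means, the low ones under the floor, span 48.3-fold over the 14 stages. By the measured values E11.5 was at least 30.3-fold brighter than E18.5. Before birth 3 of its steps were called lower. They were -1.31 ± 0.14 at E12.5 against E11.5 (limma, adjusted p = 3.5e-05), -2.46 ± 0.14 at E13.5 against E12.5 (adjusted p = 1.2e-07) and -2.58 ± 0.14 at E15.5 against E14.5 (limma, adjusted p = 3.6e-08). E14.5 was above E13.5 by 0.99 ± 0.14, just under the size threshold. The fit also called the Day7 array 1.12 ± 0.18 above Day3 and Day14 lower than Day7 by -1.10 ± 0.20. Day3 and Day14 were below the floor, so the Day7 array was at least 1.87-fold above Day3 and at least 1.47-fold above Day14, and neither bound reaches 1 log2 unit.

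Gpc3, glypican 3, a heparan sulfate proteoglycan anchored to the cell surface, had no called change before birth and was called lower in 2 steps after it. It stood at 9.13 log2 units at E11.5, 8.54 at E12.5, 8.13 at E13.5, 8.35 at E14.5, 8.45 at E15.5, 8.74 at E16.5, 8.81 at E17.5 and 8.52 at E18.5. Its highest stage came after birth: it stood at 9.12 at Day0, 9.61 at Day3, 8.15 at Day7, 7.01 at Day14, 6.81 at Day21 and 6.03 in adults, where both arrays were below the floor. The fetal change was -0.08 ± 0.32 log2 units (limma, adjusted p = 0.864).

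Gpc3 was called lower at Day7 than at Day3 (-1.46 ± 0.17 log2 units, 2.75-fold, limma, adjusted p = 2.6e-05) and at Day14 than at Day7 (-1.14 ± 0.19, 2.21-fold, adjusted p = 0.00152). Day7 and Day14 have 1 array each. Day21 and Day14 differed by -0.20 ± 0.17 (limma, adjusted p = 0.473), and the adult value was lower than that of Day21 by -0.78 ± 0.14, under the size threshold. Fitted over the 6 postnatal pools on a log time scale, the change was -3.75 ± 0.76 log2 units, or 13.4-fold, and did not pass (limma, adjusted p = 0.178). That fit called 0 of all 18194 genes (0%), of which 2540 had an unadjusted p under 0.05. On simulated data, by adjusted p alone without the size threshold, it found 58.5% of changes of 2 log2 units and 0% of changes of 1.

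Compared as classes, postnatal against fetal pools, 0 of the 8 genes were called by limma, beside 9.51% of all genes, and 3 (Hmga2, Igf2bp1 and Trim71) had an unadjusted p under 0.05. Hmga2 averaged 6.67 ± 0.25 log2 units after birth and 8.65 ± 1.77 before it (SD, n = 6 and 8 pools), a difference of -1.98 ± 0.69 (limma, adjusted p = 0.058); with quantile-normalized arrays the difference was -1.93 and passed (limma, adjusted p = 0.0469). Mdk averaged 6.00 ± 0.56 postnatally and 7.48 ± 2.12 in the fetus (limma, adjusted p = 0.236), and Gpc3 7.79 ± 1.41 and 8.59 ± 0.31 (adjusted p = 0.261). The postnatal and fetal pools overlap for each of the 8 genes, while 4.09% of all genes have no overlap. Hmga2 and Mdk were already low in the last 4 fetal pools and Gpc3 was still high in the first postnatal ones, so birth does not divide their values. Of the 20 probe sets only 1455223_at of Igf2bp1 was called lower, by -2.29 ± 0.66 (limma, adjusted p = 0.0334), beside 3.00% of all sets. Its 17 arrays from E15.5 onward, with every postnatal one among them, were below the floor, so this size was fitted and not measured.

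Over the fetal course 2 of the 8 genes, Hmga2 and Mdk, were called lower, beside 12.0% of all genes. By probe set, 12 of 20 were called lower, beside 8.19% of all sets, and they belong to 5 genes: 3 of Igf2bp1, 4 of Igf2bp3, 3 of Hmga2, 1 of Trim71 and that of Mdk. For 9 of the 12 the difference between E18.5 and E11.5, or its bound against the floor, reaches 1 log2 unit. It does not for 1449210_at of Igf2bp1, 1450687_at of Igf2bp3 and the Trim71 set, which were mostly or wholly below the floor. Sets of 1 gene share its RNA and are not independent. The rates were compared in all 28 pairs of genes by exact two-sided permutation over the 40320 orders of the 8 pools, and 14 pairs had unequal slopes after adjustment over the pairs. Hmga2 and Mdk each differed from every one of the other 6 genes, with adjusted p between 0.00833 and 0.0252, though Lin28b and Peg10 are among those 6 and have no level above the floor. The remaining unequal pairs were Lin28b with Trim71 and Trim71 with Peg10, on sets mostly or wholly below the floor. With the widest-range sets as the genes' values, Igf2bp1 and Mdk differed by 0.78 log2 units over the span (exact permutation, adjusted p = 0.365), so the pair of Mdk and Igf2bp1 depends on the probe set. Between Hmga2 and Mdk the slopes differed by 0.73 log2 units over the span (exact permutation, adjusted p = 0.325), a difference that was not detectable with 8 pools.

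**Figure D2:**
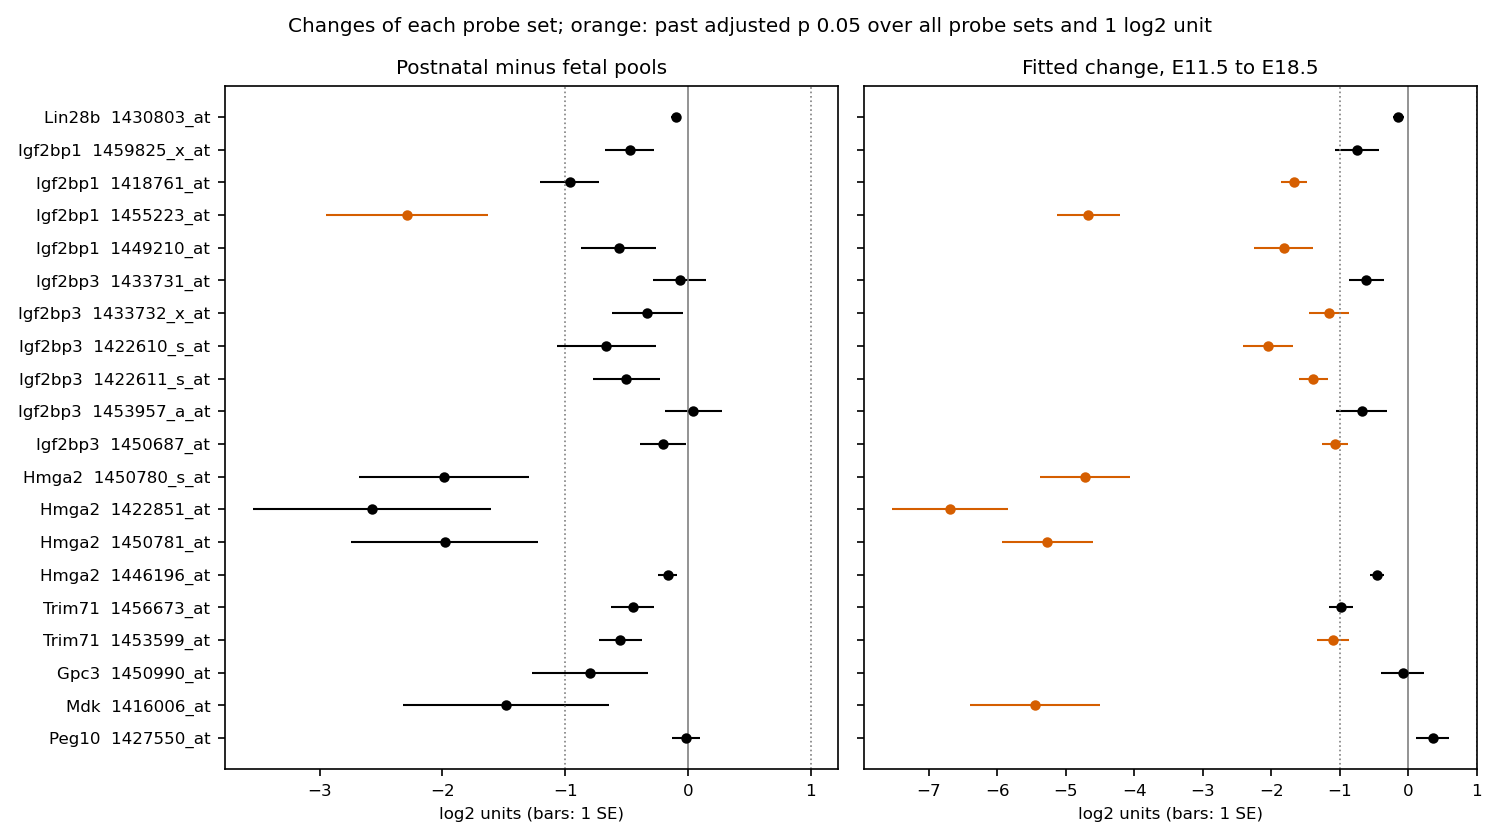
Change of each of the 20 probe sets in log2 units with 1 SE, postnatal minus fetal pools on the left and the fitted change over the fetal course on the right; dotted lines mark 1 log2 unit and orange marks called sets. Left, 1 set is orange; right, 12 sets are orange, all lower, from -1.07 for an Igf2bp3 set to -6.69 for an Hmga2 set.

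Of the 104 steps between neighbouring stages over the 8 genes, 10 were called. At E12.5 Mdk alone was lower than at E11.5, beside 1.04% of all genes, and at E13.5 Hmga2 and Mdk were lower than at E12.5, beside 0.852%. At E15.5 the same 2 genes were lower than at E14.5, beside 1.17% of all genes. By probe set the first of these steps has 4 member sets called lower beside 0.887% of all sets, the second 5 beside 0.894%, and the third 6 beside 1.13%. Against the floor the change reaches 1 log2 unit for 3, 5 and 5 of these sets. Igf2bp3 was higher at Day0 than at E18.5 (+1.04 ± 0.24, limma, adjusted p = 0.00487), beside 3.63% of genes called higher. This call rests on the single E18.5 array and on 1 of 6 sets of the gene, and without the first Day0 array the change was +0.98 and was no longer called. The steps of Gpc3 and Mdk at Day7 stand beside 6.16% of genes called in either direction, and those at Day14 beside 4.57% called lower. With arrays set to equal housekeeping levels the Day14 changes were -0.88 for Gpc3 and -0.84 for Mdk, and the Day7 change of Mdk was +0.97, all under the size threshold. With quantile-normalized arrays the Day14 change of Gpc3 was -0.80, also under it.

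**Figure D3:**
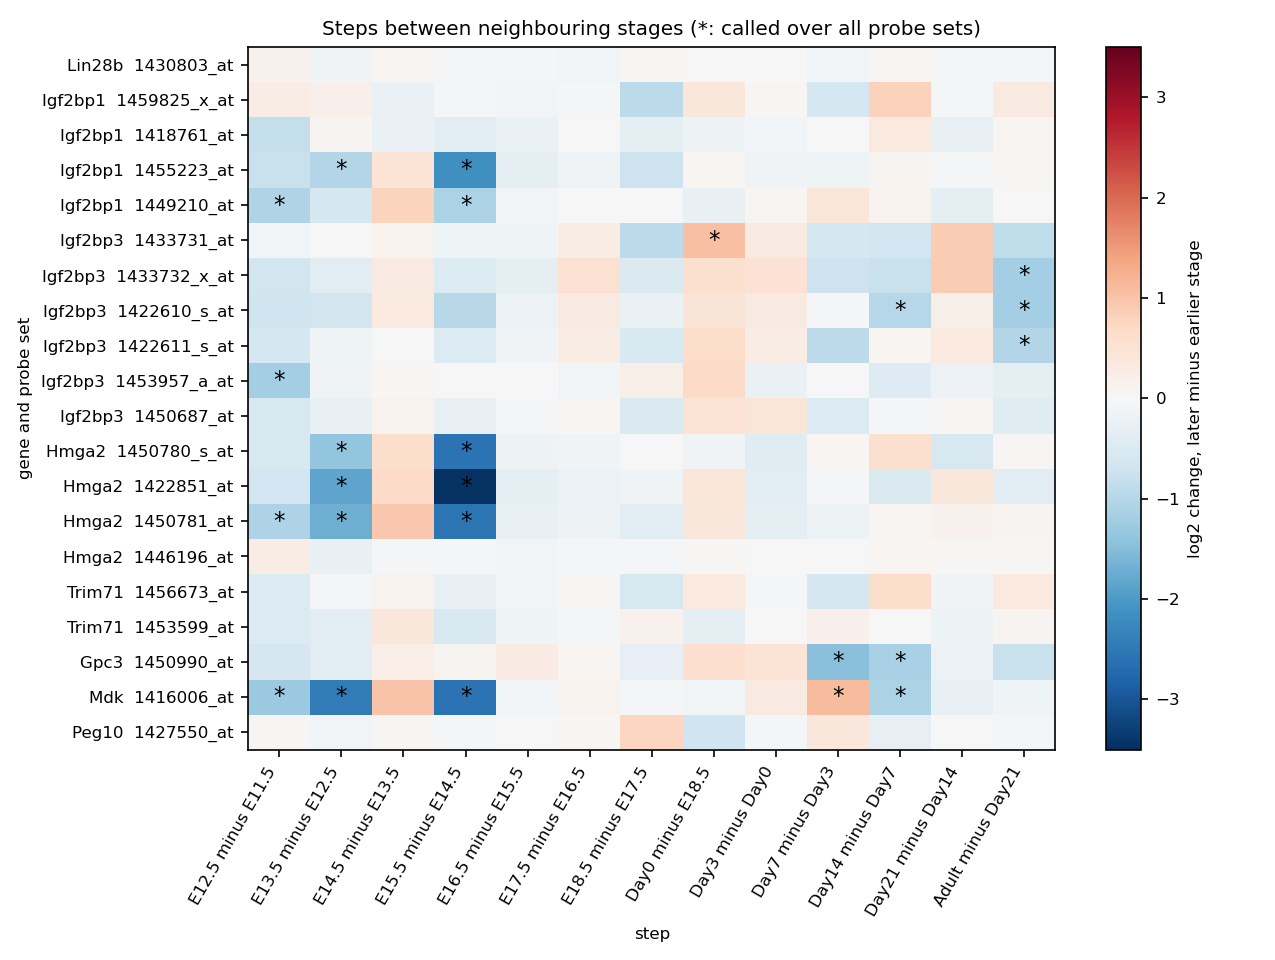
Colour shows the log2 change of the 20 probe sets (rows) in the 13 steps from a stage to the next (columns, later minus earlier); blue is lower, red is higher and stars mark called changes. The darkest blue is the E15.5 column, where Hmga2 reaches -3.47 and Mdk -2.58, and Gpc3 is blue at Day7 and Day14.

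The time at which a set left its upper range differed between genes and between sets of a gene. Measured as the stage from which a set stayed below the midpoint of its own log2 range, this was E15.5 for 3 sets each of Hmga2 and Igf2bp1, for Mdk and for 1 set of Trim71. Mdk was already below its midpoint at E13.5 and only just above it at E14.5. It was Day14 for Gpc3. The Igf2bp3 sets passed it between Day7 and adult age, and the representing set, for which it was adult age, had also been below its midpoint at E16.5, E18.5 and Day14. The representing sets of Igf2bp1 and Trim71 were above their midpoint again in adults. Some midpoints lie under the median floor of 6.28, so the crossing itself was not measured on those sets. They are those of 1449210_at of Igf2bp1 (5.59), both Trim71 sets (5.83), and 1453957_a_at (5.73) and 1450687_at (5.03) of Igf2bp3. The midpoints of 1446196_at of Hmga2 (4.60), Lin28b (3.96) and Peg10 (4.69), sets below the floor on all 25 arrays, are also among them. Over the 14 stage means Hmga2 and Mdk had r = 0.93 and rho = 0.58, a description of pools that share the same arrays, in which the 4 early stages carry most of the range.

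**Figure D4:**
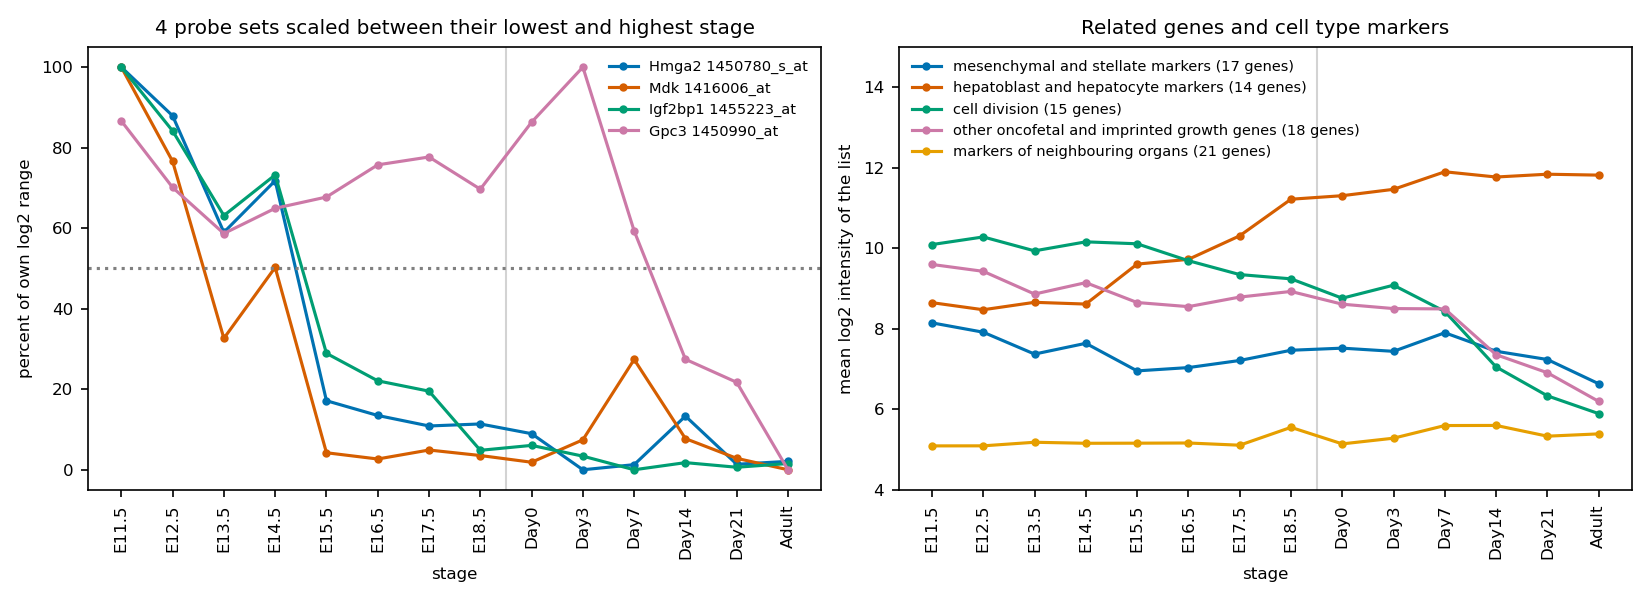
Left, 4 probe sets scaled from 0 at their lowest to 100 at their highest stage mean, with the midpoint dotted. Right, mean log2 intensity of 5 lists of related genes and cell type markers at the same stages; the vertical line is birth. Hmga2, Mdk and Igf2bp1 cross the midpoint for good at E15.5 and Gpc3 at Day14; at E15.5 the mean of the hepatocyte markers is above and that of the mesenchymal markers below its E14.5 value.

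Among 3228 genes whose stage means span at least 2 log2 units, the course most like that of Hmga2 was that of Asb4 (r = 0.994 over 14 stages), which lies near Peg10 in the genome, followed by the embryonic globin Hba-x (0.981) and Ncoa5 (0.979). For Mdk they were the connexin Gjc1 (0.985), the imprinted Nnat (0.978) and Mex3b (0.975). For Gpc3 they were Clic1 (0.931), Rac2 (0.925) and the imprinted growth inhibitor Grb10 (0.921). Igf2bp1 came closest to Pvt1, Hesx1 and Nrip1 (0.920 to 0.893), Igf2bp3 to Rab24, Klf10 and Trpm7 (0.820 to 0.794) and Trim71 to Prdm4, Med24 and Thap11 (0.969 to 0.939). For Igf2bp1 this is 1459825_x_at, whose course differs from its other sets, and for Trim71 a set above the floor on 4 of 25 arrays. Single arrays weigh in these matches. Igf2bp1 and Trim71 were lowest on the Day7 array, as were Pvt1 (4.87) and Prdm4 (5.06). Igf2bp3 was lowest on the E18.5 array, as was Trpm7 (5.82). The 3 genes most like Peg10 were the muscle genes Tnnc2 (0.968), Myh8 (0.929) and Acta1 (0.889). Acta1 stood at 9.56 log2 units on the single E18.5 array and between 5.35 and 6.03 at the other fetal stages, and Peg10 also had its highest value, 5.08, at E18.5. For Lin28b, whose own range was 0.28 log2 units below the floor, they were 4930503L19Rik, Prim2 and Dzip3 (0.906 to 0.902).

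Genes that make and load microRNAs were among those called lower before birth. Of 18 genes of let-7 and microRNA processing, 8 were called lower and 0 higher over the fetal course, beside 12.0% and 4.40% of all genes, with a median change of -0.80 log2 units against 0.04 over all genes and -0.44 over 14 housekeeping genes. The count depends on scaling, with 4 lower on quantile-normalized arrays and 3 at equal housekeeping levels, and the median stayed negative in both, at -0.46. They include Drosha (-2.51 ± 0.26), which cuts the primary transcript, Ago1 (-1.87 ± 0.29), which loads the mature RNA, Dicer1 (-1.53 ± 0.19) and its partner Tarbp2 (-1.24 ± 0.21). Among 29 other let-7 targets 13 were lower and 1 higher, with the cyclins Ccnd1 (-3.01 ± 0.44) and Ccnd2 (-2.53 ± 0.51), Myc (-2.34 ± 0.45) and Nras (-1.98 ± 0.28) named by size and the insulin receptor gene Insr higher (+1.53 ± 0.27). These adjusted p-values came from limma over all genes and are at most 0.0085 for the genes named.

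Of 10 measured close relatives of the 8 genes, 0 were called by limma in either direction over the fetal course. Trim32, a relative of Trim71, alone had an unadjusted p under 0.05, with a change of -0.93 ± 0.17 log2 units (adjusted p = 0.006). Lin28a, the paralogue of Lin28b, stayed between 4.55 and 4.86 log2 units at all stages, below the lowest floor. After birth 2 relatives were higher than before it, beside 5.01% of all genes: the glypican gene Gpc4 by 1.53 ± 0.17 log2 units (limma, adjusted p = 0.000185) and Trim2 by 1.07 ± 0.35 (adjusted p = 0.0454).

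Partners of midkine and of glypicans moved both ways. Over the fetal course 2 of 20 rose and 4 fell, beside 4.40% and 12.0% of all genes. With quantile normalization or equal housekeeping levels 4 rose and 3 fell. In the main fit the syndecan genes Sdc2 (+1.98 ± 0.33) and Sdc4 (+1.15 ± 0.30) rose. Those that fell were Hs2st1 (-1.81 ± 0.34) and Sulf2 (-1.75 ± 0.40), which modify heparan sulfate, Ncl (-1.71 ± 0.37), which codes for nucleolin, and the integrin gene Itga6 (-1.01 ± 0.23). Postnatal against fetal pools, 5 were higher and 2 lower, beside 5.01% and 4.50% of all genes, with Sdc4 up by 2.56 ± 0.26 and Itga4 down, at -2.22 ± 0.47. The Igf2 axis is named for Igf2, whose message Igf2bp proteins bind. Over the fetal course 2 of its 13 measured genes rose and 2 fell, beside 4.40% and 12.0% of all genes. Igf1r (-1.98 ± 0.25) and Igf2r (-1.45 ± 0.31) fell, and Igfbp1 (+4.83 ± 0.67) and Insr rose.

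Other oncofetal and imprinted growth genes were called lower both before and after birth. Over the fetal course 6 of 18 were called lower and 1 higher, beside 12.0% and 4.40% of all genes. The largest falls were those of Sox11 (-3.14 ± 0.68), Ndn (-3.01 ± 0.53), Sox4 (-2.75 ± 0.77) and the stem cell factor Sall4 (-1.58 ± 0.28), and Cd24a was higher (+1.20 ± 0.33). At E15.5 against E14.5, the step of Hmga2 and Mdk, 4 were lower, beside 1.17% of all genes: Sox4, Ndn, Cdkn1c and Sox11. As many were lower at E13.5 against E12.5, beside 0.852% of all genes. At Day14 against Day7, the step of Gpc3, 8 were lower and 1 higher, beside 4.57% and 1.16% of all genes. The largest falls there were those of Cd24a (-3.66 ± 0.31), Meg3 (-3.31 ± 0.26), Sox4 (-2.59 ± 0.45) and Mest (-2.53 ± 0.42). In adults 6 were lower than at Day21, beside 1.20% of all genes. Changes of these other genes are fitted values and were not bounded by the floor. Among 10 neighbours of Peg10 on the chromosome 4 rose and 2 fell before birth, beside 4.40% and 12.0% of all genes. Pon1 stood at +5.57 ± 1.18 and Asb4 at -4.20 ± 0.59, so that genes around Peg10 gave signal above the floor where its own probe set did not.

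Markers of other cells moved in the same steps. At E15.5 against E14.5, 4 of 17 mesenchymal and stellate markers were lower and 0 higher, beside 1.17% and 1.28% of all genes. The 4 were Col1a1 (-2.17 ± 0.14), Pdgfra (-1.65 ± 0.18), Col3a1 (-1.45 ± 0.19) and Hand2 (-1.10 ± 0.08). The summed intensity of that list was 3785 at E15.5 and 7185 at E14.5. Hepatocyte markers were higher, 6 of 14, beside 1.28% of all genes, with Cyp3a11 at +3.40 ± 0.25 and Cps1 at +2.94 ± 0.21, and their summed intensity was 48239 at E15.5 and 23955 at E14.5. Of 10 erythroid markers 2 were lower and 0 higher, beside 1.17% and 1.28% of all genes, with a median change of 0.04 log2 units. The 2 were the embryonic globins Hba-x (-3.48 ± 0.15) and Hbb-bh1 (-2.13 ± 0.22). Of 15 cell division genes 0 were called, the lowest adjusted p by limma being 0.0595 for Plk1. Over the 8 fetal pools the mesenchymal sum ranged from 3785 to 10403, highest at E11.5 as for Hmga2 and Mdk. After birth it ranged from 2394 in adults to 10914 at Day7, the pool with the raised Mdk. Other stages were less alike. The sum was 6896 at E18.5 and 6617 at Day14, while Mdk stood at 5.76 and 5.99 log2 units, against 8.37 at E14.5. At Day7 the sum was above that of E11.5, while Mdk stood at 7.09 against 11.16. Hmga2 did not exceed 7.08 after birth, against 11.18 at E11.5. The part of these cell types in the changes of Hmga2, Mdk and Igf2bp1 was not tested. At Day14 against Day7, where Gpc3 was lower, 10 of 15 cell division genes were lower too, among them Mki67 (-2.82 ± 0.33). So were 4 of 10 erythroid markers, beside 4.57% of all genes. The part of these genes in the change of Gpc3 was likewise not tested.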

How the data were processed

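Total RNA of pooled livers was hybridised to Affymetrix arrays, and the deposited table holds linear intensity values of 45101 probe sets on 25 arrays; RMA was applied per the submitters' processing notes, with version, scaling and genome build not given in the sources used here. Each intensity was converted to log2. Of the sets 34958 carried 1 symbol, 932 several and 9211 none, and 204 could not be matched to the RefSeq gene table. Repeat arrays of a stage were averaged, so the 14 pools were the samples of the class comparison and of both courses. No label says that pools of a class are replicates, so their spread includes development. Neighbouring stages were fitted on all 25 arrays, with technical error only, and E18.5, Day7 and Day14 assumed to vary like the rest. Fits used limma 3.58.1 (lmFit, eBayes) in R 4.3.3 over all genes, or over all probe sets, with Benjamini-Hochberg adjustment; calls need an adjusted p under 0.05 and 1 log2 unit. The adjusted p alone, without the size threshold, was tested on simulated data of 18194 genes. Most of these were unchanged and varied independently of each other, unlike the genes of these data. Changes of 2 log2 units were found in 98% (class comparison), 80.5% (fetal course) and 99.5% (E15.5 minus E14.5) of the changed genes. Changes of 1 log2 unit were found in 77.5%, 52% and 89%. Of the genes found, 7.74%, 7.14% and 8.25% were false at 1 log2 unit, and 3.45%, 5.85% and 3.86% at 2. "At least" folds set the bright stage's mean against, per array of the dim stage, the higher of its value and the floor. Named were all members, the 3 genes most alike, and up to 4 called genes of a list. Members, lists and tests were chosen with earlier results of these data known. The listed genes Igf2bp2, Hmga1 and H19, among others, were not analysed here. Scaling, probe set choice, filters, variance model and left-out arrays or stages were varied.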

Additional observations from a re-analysis of the deposited data

Results flagged for a closer look

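A test for single outlying values (Dixon's ratio, within the 8 fetal or the 6 postnatal pools) marked 5 values of 4 genes, and chance marks about 1 in 20 groups. Each lies on a stage with 1 array. On the E18.5 array Igf2bp1 stood at 6.9 log2 units, with the nearest fetal pool at 7.82, Igf2bp3 at 9.11 with the nearest at 9.78, and Peg10 at 5.08 with the nearest at 4.42. On the Day7 array Mdk stood at 7.09, with the nearest postnatal pool at 5.99, and Peg10 at 4.71 with the nearest at 4.41. The Peg10 values are below the floor. On the same arrays the summed intensity of 21 markers of neighbouring organs was 1682 at E18.5 and 2940 at Day7, against 776 to 846 at the 7 earlier fetal stages and 825 to 1786 in the other 5 postnatal pools, where Day14, also 1 array, was the highest, with Acta1 at 9.56 log2 units at E18.5 and the intestinal Fabp2 at 10.99 at Day7. Their part in these values was not tested.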

How the results depend on the processing

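Of 8 genes compared between postnatal and fetal pools, 1 was called in place of 0 with quantile normalization, equal housekeeping levels, genes above the median level only, an intensity trend with robust spread, or E18.5 counted as postnatal (Hmga2 in these 5 settings), and with the mean of all probe sets or the set with the widest range, an alternative chosen after seeing the data (Igf2bp1 in both); leaving out 1 stage gave 0 to 1, with 1 (Hmga2) without E16.5, E17.5 or E18.5. Over the fetal course 5 genes were called with the mean of all probe sets and 4 with the widest-range sets in place of 2, and pairs with unequal slopes came to 23 under both in place of 14. Igf2bp1 was also called lower without sets ending in _x_at, _s_at or _a_at (-1.67) and without E11.5 (-1.14). Trim71 was also called lower with equal array medians (-1.05), with replicate 1 arrays only (-1.04), and without E12.5, E13.5 or E17.5. Leaving out 1 stage at a time gave 10 to 15 pairs. The E13.5 minus E12.5 change of Igf2bp1 was +0.18 with its representing set and -1.02 with its widest-range set. The Hmga2 and Mdk fetal falls were called in all alternatives run, between -6.69 and -4.28 and between -6.46 and -5.12, and with 1 stage left out between -5.42 and -4.54 and between -6.46 and -4.51. Fits without E11.5 or E18.5 keep the full span, so they extend past the pools they hold. Equal housekeeping levels moved the median change of all genes by 0.22 between the classes, where 1249 genes were higher and 589 lower in place of 912 and 819, and by 0.34 over the fetal course, where 1558 were higher and 1284 lower in place of 800 and 2179 (951 and 1340 with quantile normalization). Replicate numbers were not taken to pair the arrays of different stages, since not every correlation of replicate 1 deviations was above 0.1. Over 55 pairs of stages they lay between -0.57 and 0.73 with a median of 0.40, and 38 were above 0.1, while replicate 1 had the higher mean intensity in 10 of 11 stages. With the replicate number as a block, 10 member steps were called, as without it, and 7121 in place of 6814 steps over all genes. Where a setting changed a call, the cause was not tested. Signal over the floor limits what can be said of Lin28b, Peg10, Trim71 and, from E15.5, Mdk. The same holds from E15.5 for 1455223_at of Igf2bp1 and for 1422851_at and 1450781_at of Hmga2. The representing set of Hmga2 was above the floor on 16 of 17 arrays from E15.5. Its postnatal means of 6.45 to 7.08 log2 units lie close to the median floor of 6.28.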
